A study of Mus musculus with 9 samples.

Results

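MHC class I and peptide loading genes were followed in RNA from choroidal-retinal flat mounts of C57BL/6 mice, as the 10 rows of the deposited table of 54532 genes that carry the names H2-K1, H2-D1, B2m, Tap1, Tap2, Tapbp, Psmb8, Psmb9, Psmb10 and Nlrc5. All 10 names were found once. The 9 libraries formed 3 groups of 3. One group came from untreated mice. Another came from mice labelled CNV, the abbreviation used for choroidal neovascularization, whose titles read wet-AMD, for wet age-related macular degeneration. The remaining group, titled Betp-Gel@Ran, was taken 3 months after an injection of the hydrogel BetP-Gel into the vitreous. The series title concerns this gel as a carrier for ranibizumab, an antibody fragment against vascular endothelial growth factor A, but the treatment field of these samples names only the gel. The labels give no sampling time for the untreated and CNV mice, do not say how CNV was produced or whether the gel mice had it, and give no age or sex. Time and treatment therefore cannot be told apart. Whether libraries within a group are separate animals is not stated, so the p-values reflect the spread between libraries alone, and that spread may be technical.

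MHC class I molecules carry peptides from inside the cell to its surface, where CD8 T cells read them. Each molecule is a heavy chain, in these mice encoded by H2-K1 and H2-D1, bound to the light chain beta-2 microglobulin from B2m. Peptides are cut by the proteasome, whose catalytic subunits can be replaced by the immunoproteasome subunits Psmb8, Psmb9 and Psmb10, and are pumped into the endoplasmic reticulum by the transporter Tap1-Tap2, to which tapasin (Tapbp) tethers empty class I molecules. Interferon gamma is the best known inducer of the whole set, and Nlrc5 is the coactivator that switches on class I promoters. Healthy retina is known for low class I expression, which forms part of the immune privilege of the eye.

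The level of each gene was read as FPKM, fragments per kilobase of gene scaled to sequencing depth, so levels of different genes can be compared per length. Recovered read totals were 16990118 to 18753737 per library, and 13164 to 13481 genes reached 1 FPKM. Defining markers of the labelled tissue were present, and those of rods differed between groups. Rod photoreceptor markers summed to 3460 to 4328 FPKM in untreated libraries, 1409 to 1713 in CNV and 1849 to 2442 after the gel. Pigment epithelium markers summed to 729 to 998, 774 to 1163 and 775 to 853 FPKM. Markers of other eye tissues were present too and moved with the groups: skeletal muscle markers summed to 4967 to 5431 FPKM in untreated libraries, 815 to 1379 in CNV and 1138 to 1360 after the gel, and corneal epithelium markers to 16233 to 19148, 7538 to 9069 and 11818 to 14257. Lens markers summed to 815.5 to 19479 FPKM in untreated libraries, 14.3 to 108 in CNV and 1196 to 4502 after the gel. Untreated replicate 3 stood apart within its group by these lens markers, 19479 FPKM against 815.5 and 832.2 in the other untreated libraries. BetP-Gel@Ran replicate 3 stood apart by its neutrophil markers, 124 FPKM against 15.03 and 15.6. The part of these tissues in the results was not tested. In bulk tissue, more cells of a type and more RNA per cell cannot be told apart.

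In untreated tissue the light chain and the heavy chains were by far the most abundant members. B2m stood at 427 ± 50.8 FPKM (SD, n = 3), H2-D1 at 236 ± 11.5 and H2-K1 at 137 ± 6.94. Tapasin followed at 37.8 ± 1.49 FPKM, Psmb8 at 34.1 ± 0.914, Psmb10 at 29.6 ± 2.91, Psmb9 at 11.2 ± 1.52, Tap1 at 9.44 ± 0.740 and Tap2 at 5.53 ± 1.09. Nlrc5 was lowest, at 0.257 ± 0.0213 FPKM. Neighbours in this order did not overlap between untreated libraries, except Psmb9 and Tap1. The order of the 10 means was the same in all 3 groups.

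**Figure D1:**
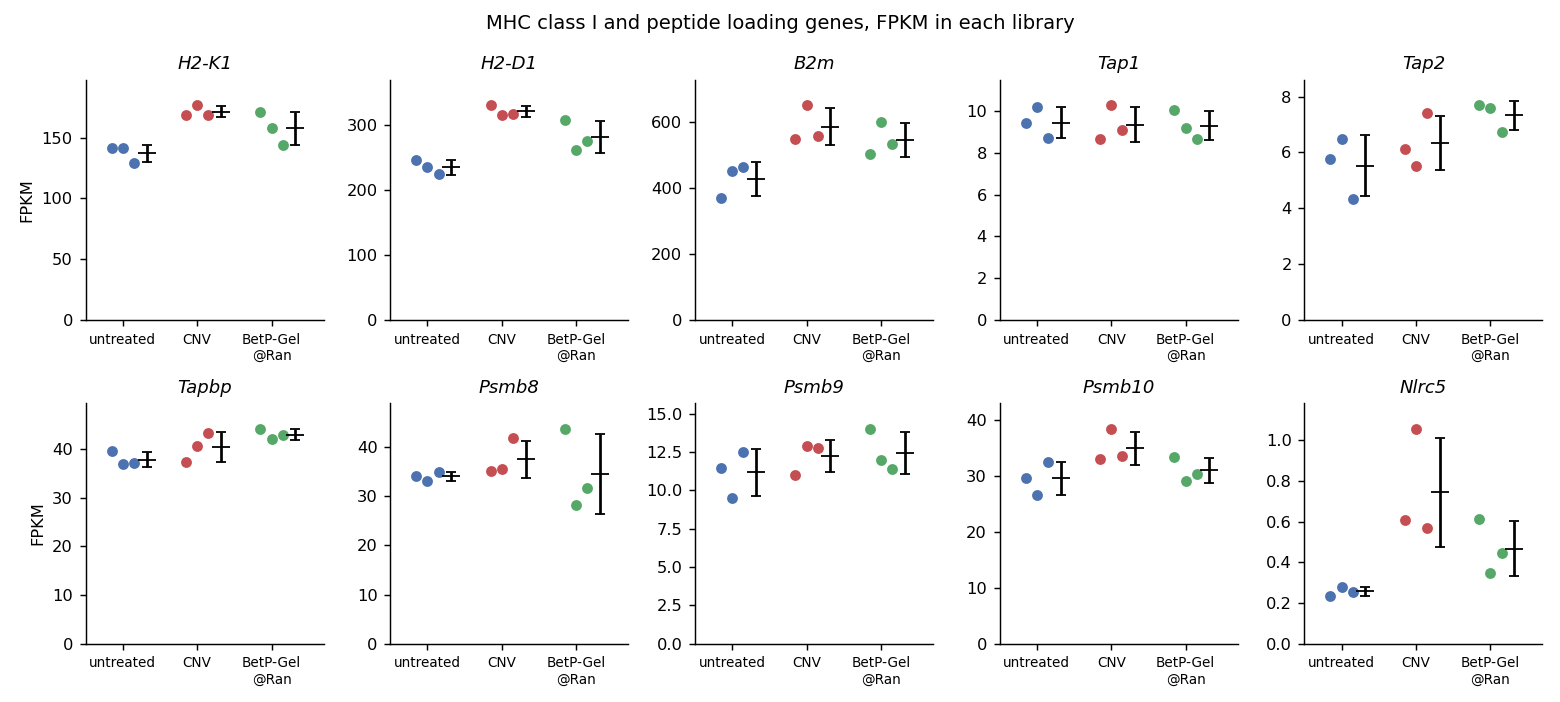
FPKM of the 10 MHC class I and peptide loading genes in each of the 9 libraries (points, one panel per gene, vertical axes from 0), with the group mean and SD (bar, n = 3). The CNV points of H2-K1, H2-D1, B2m and Nlrc5 all lie above the untreated points, and the Tap1 points of the 3 groups lie over each other between 8.65 and 10.3 FPKM.

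A gene was tested where it reached 1 FPKM in at least 3 of the 9 libraries. This held for 14086 genes, among them 9 of the 10 members, and Nlrc5 was left untested because only 1 library reached 1 FPKM. The test was limma on log2(FPKM + 1), with Benjamini-Hochberg adjustment over all tested genes, and a gene is called changed where the adjusted p was under 0.05. Log2 differences below are on that scale, which understates the change of low genes.

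In CNV against untreated tissue, the classical heavy chains and their light chain passed the test, and the 6 tested members of loading and processing did not. Whether these sets of members differ from each other was not tested. H2-K1, H2-D1 and B2m were called higher, 0 members were called lower and 6 were not called, with a median difference of 0.17 over the 9 tested members against 0.01 over all tested genes. That is 3 of 9, in a comparison where 44.6% of all tested genes were called, 22.5% higher and 22.1% lower. Higher genes made up 50.4% of all called genes, or 62.3% with reads scaled to their own library total. By non-overlap of the libraries, 6 of 10 members lay higher in every CNV library, against 27.7% of all tested genes, and 0 lay lower in every library, against 26.7%. Of those 6, Psmb8 and Psmb10 were not called, and Nlrc5 lies outside the tested genes that the share covers.

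H2-D1 (ENSMUSG00000073411, mm10 chr17:35262730-35267499, + strand), which encodes the D heavy chain, measured 247, 235 and 224 FPKM in untreated replicates 1 to 3. It measured 330, 316 and 317 FPKM in the CNV libraries and 308, 261 and 276 after the gel. Both other groups lay above every untreated library, and every gel library lay below every CNV library. The rise in CNV was 0.45 ± 0.09 (SE; 95% interval 0.26 to 0.64, limma adjusted p = 0.00255), a 1.36-fold ratio of means.

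H2-K1 (ENSMUSG00000061232, chr17:33996017-34000333, - strand), the K heavy chain, measured 141, 141 and 129 FPKM in untreated libraries, 169, 177 and 169 in CNV and 171, 158 and 144 after the gel. No untreated library reached any library of the other groups, while the gel and CNV ranges overlapped. It rose by 0.32 ± 0.08 in CNV (95% interval 0.13 to 0.51, limma adjusted p = 0.0126), a 1.25-fold ratio of means. The ratio of H2-D1 to H2-K1 was 1.72 ± 0.0442 in untreated libraries, 1.88 ± 0.0843 in CNV and 1.79 ± 0.131 after the gel (SD, n = 3).

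B2m (ENSMUSG00000060802, chr2:122147686-122153083, + strand) measured 369, 451 and 461 FPKM in untreated libraries, with replicate 1 the lowest. In CNV it measured 547, 648 and 556 FPKM, and after the gel 501, 599 and 532. The untreated libraries again lay below all others, and gel and CNV overlapped. B2m rose by 0.45 ± 0.12 in CNV (95% interval 0.19 to 0.72, limma adjusted p = 0.0125), a 1.37-fold ratio of means. Without untreated replicate 3, the library richest in lens RNA, the differences in CNV were 0.41 for H2-D1, 0.28 for H2-K1 and 0.51 for B2m. The summed lens markers of the other untreated libraries still lay above those of every CNV library. H2-D1, H2-K1 and B2m were called in each of 19 alternative settings.

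Reads of near-identical class I genes could have been shared. Of the 100-base stretches of GENCODE M21 transcripts, 3.59% of those of H2-D1 and 0.957% of those of H2-K1 also occurred in transcripts of other genes, mostly H2-Q1 and H2-Q10. The share was 8.05% for Psmb8, all with Gm20496, 4.99% for Tap2, 2.73% for Psmb9 and 1.93% for Tap1. None of the stretches of B2m, Psmb10 and Nlrc5 was shared. B2m lies within the span of Patl2 and Psmb10 within that of Gm16156, both on the opposite strand. On the opposite strand, Tap2 also overlaps Gm15821 and Gm20496, and Psmb8 overlaps Gm20496. The library kit keeps no strand.

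The promoters of the 3 genes that rose are shown because the heavy chain genes share a stretch of sequence that B2m lacks. RefSeq windows for GRCm38.p6, running from 250 bases before to 50 after an annotated start, were found for 8 of the 10 members and searched for 4 motifs on both strands. These were GAAA and GAAA with any 2 bases between them, the core of the interferon-stimulated response element, TTCNNNGAA, the gamma-activated site, CCAAT, bound by NF-Y, and the kappa B consensus. Printed are the 200 bases before the start, 5′ to 3′ on the gene's strand, for H2-K1 (chr17:34000348-34000547, - strand), H2-D1 (chr17:35262894-35263093, + strand) and B2m (chr2:122147487-122147686, + strand), with all matches in capitals.
H2-K1: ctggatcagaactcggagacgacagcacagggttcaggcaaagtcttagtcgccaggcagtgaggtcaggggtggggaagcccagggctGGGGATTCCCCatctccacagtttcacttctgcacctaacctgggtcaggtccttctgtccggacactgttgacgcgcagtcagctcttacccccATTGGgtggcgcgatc
H2-D1: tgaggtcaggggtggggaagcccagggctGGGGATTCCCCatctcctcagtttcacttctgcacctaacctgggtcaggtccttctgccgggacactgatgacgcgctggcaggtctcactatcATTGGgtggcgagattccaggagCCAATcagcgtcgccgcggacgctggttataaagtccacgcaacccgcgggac
B2m: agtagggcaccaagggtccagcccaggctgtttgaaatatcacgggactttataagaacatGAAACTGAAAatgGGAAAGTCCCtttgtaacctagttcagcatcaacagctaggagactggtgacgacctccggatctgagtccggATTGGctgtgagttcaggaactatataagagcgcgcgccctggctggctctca

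In the heavy chain promoters the capitals mark a kappa B match, whose letters fit the consensus on either strand and in 2 overlapping frames. Downstream of it, the printed H2-K1 stretch holds 1 CCAAT box, on the opposite strand, and the H2-D1 stretch holds 1 on each strand. This kappa B match lies within the longest run that the H2-K1 and H2-D1 windows share, 47 bases beginning at base -141 of H2-K1 and base -201 of H2-D1, counted back from the start. In the B2m promoter the capitals mark the interferon-stimulated response element core at bases -139 to -130, then a kappa B match at -126 to -117 and a CCAAT box at -53 to -49. The printed H2-D1 stretch lies inside the deposited gene range, which begins further upstream. H2-K1 has another RefSeq start nearby, whose window holds the same matches.

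The other windows held fewer matches. The exact letters of the interferon-stimulated response element core were found in B2m alone among the members' windows, and in 3.44% of all 32851 windows of the table. The kappa B consensus was found in H2-K1, H2-D1 and B2m, and in 8.46% of all windows. The gamma-activated site was found in Psmb8 alone, at bases -97 to -89, and in 8.30% of all windows. CCAAT was found in H2-K1, H2-D1, B2m, Tapbp, Psmb9 and Tap1, and in 37.4% of all windows, and the Psmb10 window held none of the 4. Tap1 and Psmb9 start 226 bases apart on opposite strands, so their windows overlap over 275 bases. A match describes the letters in a window and is neither a binding site nor a cause. Looser forms of a motif were not searched for, so a window without a match may still hold the element.

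The peptide transporter did not pass the test in any comparison. Tap1 (ENSMUSG00000037321, chr17:34187553-34197225, + strand) measured 9.44, 10.2 and 8.70 FPKM in untreated libraries, 8.65, 10.3 and 9.11 in CNV and 10.1, 9.18 and 8.68 after the gel. Its 3 groups overlapped fully. The 95% interval of its log2 difference was -0.21 to 0.19 for CNV against untreated, -0.20 to 0.20 for gel against CNV and -0.22 to 0.18 for gel against untreated. Its reads cannot be told from those of Psmb9 over 212 overlapping bases.

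Tap2 (ENSMUSG00000024339, chr17:34203527-34216321, + strand), the other transporter chain, measured 5.77, 6.48 and 4.34 FPKM in untreated libraries and 6.11, 5.50 and 7.40 in CNV. After the gel it measured 7.68, 7.58 and 6.73 FPKM, above every untreated library. The difference between gel and untreated was 0.36 ± 0.14 (95% interval 0.06 to 0.67, limma adjusted p = 0.0655). It passed the threshold without untreated replicate 2 (limma adjusted p = 0.0398) and without CNV replicate 3 (0.0475). Tap2 rested on 265 to 522 reads per library, the fewest after Nlrc5.

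Tapasin (Tapbp, ENSMUSG00000024308, chr17:33915899-33929288, + strand), which holds class I molecules at the transporter and edits their peptides, measured 39.5, 36.9 and 37.0 FPKM in untreated libraries. It measured 37.3, 40.5 and 43.3 FPKM in CNV and 44.0, 41.9 and 42.8 after the gel. The gel libraries lay above all untreated ones, and CNV overlapped both. The differences from untreated were 0.09 ± 0.07 in CNV (limma adjusted p = 0.346) and 0.18 ± 0.07 after the gel (limma adjusted p = 0.0889). The gel difference passed the threshold with FPKM divided by its sum (0.27, limma adjusted p = 0.0403), quantile normalization (0.31, 0.00868) and reads scaled to their own library total (0.25, 0.0225). Of its 100-base stretches, 14.8% also occurred in other transcripts, nearly all of them of Gm19412.

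None of the 3 immunoproteasome subunits was called in any comparison. Psmb8 (ENSMUSG00000024338, chr17:34197721-34201454, + strand) measured 34.1, 33.2 and 35.0 FPKM in untreated libraries, 35.2, 35.6 and 41.9 in CNV and 43.7, 28.3 and 31.7 after the gel. The gel libraries thus ran from below to above both other groups, and the CNV libraries lay just above the untreated ones. The CNV difference was 0.13 ± 0.14 (95% interval -0.19 to 0.45, limma adjusted p = 0.481).

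Psmb9 (ENSMUSG00000096727, chr17:34181988-34187764, - strand) measured 11.4, 9.53 and 12.5 FPKM in untreated libraries, 11.02, 12.9 and 12.8 in CNV and 13.99, 11.96 and 11.4 after the gel, and the 3 groups overlapped. Its CNV difference was 0.13 ± 0.11 (95% interval -0.13 to 0.38, limma adjusted p = 0.396). Psmb10 (ENSMUSG00000031897, chr8:105935735-105938444, - strand) measured 29.6, 26.6 and 32.4 FPKM in untreated libraries, 33.1, 38.4 and 33.5 in CNV and 33.4, 29.1 and 30.4 after the gel. Its CNV libraries lay above the untreated ones, by 0.24 ± 0.10 (95% interval 0.02 to 0.45, limma adjusted p = 0.0702). Psmb10 passed the threshold without untreated replicate 3 (limma adjusted p = 0.0386), and with FPKM divided by its sum (0.0136), quantile normalization (0.0193) and reads scaled to their own library total (0.0103).

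Each induced subunit takes the place of a constitutive one in the proteasome: Psmb8 that of Psmb5, Psmb9 that of Psmb6 and Psmb10 that of Psmb7. Psmb10 per Psmb7 was 0.880, 0.849 and 0.814 in untreated libraries, 1.08, 1.23 and 1.17 in CNV and 1.35, 1.16 and 1.21 after the gel. Every untreated library lay below every other library. Psmb8 per Psmb5 was 0.244 ± 0.0155 in untreated libraries, 0.310 ± 0.0518 in CNV and 0.340 ± 0.0422 after the gel (SD, n = 3), again with no untreated library reaching the others. Psmb9 per Psmb6 was 0.115 ± 0.0118, 0.136 ± 0.0183 and 0.173 ± 0.0177, and here every gel library lay above both other groups.

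The log2 differences of these ratios between CNV and untreated were 0.33 for Psmb8 per Psmb5, 0.24 for Psmb9 per Psmb6 and 0.45 for Psmb10 per Psmb7. Without CNV replicate 3 the difference was 0.20 for Psmb8 per Psmb5 and 0.15 for Psmb9 per Psmb6, and the latter was 0.16 without untreated replicate 2. Between gel and untreated they were 0.47, 0.59 and 0.55. The smallest p that an exact two-sided permutation test can give with 3 libraries per group is 0.10, which keeps all 9 comparisons above 0.05. The p was 0.1 (adjusted 0.15 over the 9) wherever groups did not overlap, as in all 3 gel against untreated comparisons. In CNV against untreated, Psmb8, Psmb9 and Psmb10 differed by 0.13, 0.13 and 0.24, less than their ratios did. No constitutive subunit was called lower there. In gel against untreated the constitutive partners fell. Psmb5 was 140 ± 11.4 FPKM in untreated libraries and 100.9 ± 10.9 after the gel, a fall by 0.47 (limma adjusted p = 0.00697). Psmb6 fell by 0.43 (limma adjusted p = 0.0114) and Psmb7 by 0.46 (limma adjusted p = 0.00438), while Psmb8, Psmb9 and Psmb10 differed by -0.00, 0.15 and 0.07 and were not called.

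**Figure D2:**
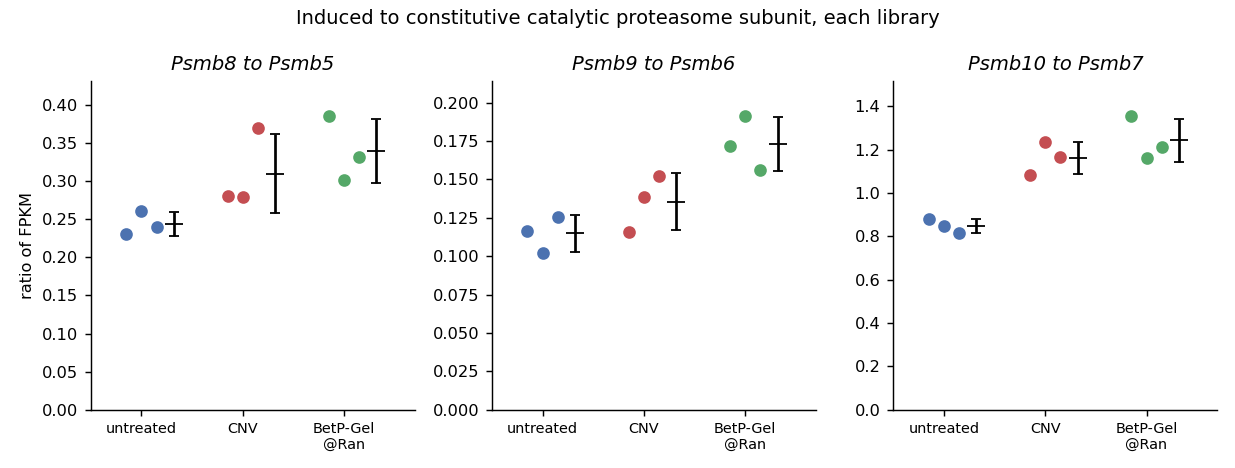
Ratio of the FPKM of each induced catalytic proteasome subunit to the constitutive subunit it replaces, in each of the 9 libraries (points, vertical axes from 0), with the group mean and SD (bar, n = 3). All 3 gel libraries lie above all 3 untreated libraries in each panel, with a mean Psmb10 per Psmb7 of 0.848 in untreated and 1.24 in gel libraries.

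Nlrc5 (ENSMUSG00000074151, chr8:94434356-94527272, + strand) measured 0.236, 0.278 and 0.255 FPKM in untreated libraries, 0.606, 1.05 and 0.568 in CNV and 0.611, 0.346 and 0.444 after the gel. These values came from 34, 42 and 35 reads, 102, 157 and 90 reads, and 91, 53 and 64 reads. Every CNV and gel library lay above every untreated one, with ratios of means of 2.89 and 1.82, and gel and CNV overlapped. In a fit without the level filter the CNV difference was 0.46 (limma adjusted p = 0.0243). A limma voom fit of the recovered reads of 17594 genes, added after the data were seen, gave 1.45 ± 0.32 (adjusted p = 0.00323) for CNV and 0.81 ± 0.34 (adjusted p = 0.0912) for gel against untreated. The larger value is on a scale of reads, without the addition of 1 FPKM that compresses a gene this low.

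After the gel, 0 of the 9 tested members differed from CNV by the test, in a comparison where 5.81% of all tested genes were called higher and 8.27% lower. At an unadjusted limma p under 0.05 the count was also 0, with the smallest p, 0.0507, for H2-D1, and limma voom on the recovered reads called 0. That count depended on the setting. The unadjusted limma p of H2-D1 was 0.0443 with no filter and 0.0433 without trend and robust. It was 0.0534 with a filter of 5 FPKM and 0.0525 with limma voom. The median difference of the members was -0.10, against 0.00 over all tested genes. H2-D1 was the only member whose gel libraries all lay below the CNV ones, against 18.6% of all tested genes, and 0 members lay above, against 18.3%. For H2-D1 the comparison gave a difference of -0.19 ± 0.09 (95% interval -0.38 to 0.00, limma adjusted p = 0.157). H2-K1 differed by -0.12 (95% interval -0.31 to 0.07) and B2m by -0.10 (95% interval -0.37 to 0.17).

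Against untreated tissue, the gel group was called higher in H2-D1 and B2m, 2 of 9 tested members, where 16.1% of all tested genes were called higher and 18.1% lower. Higher genes made up 47.1% of all called genes, or 63.0% with FPKM divided by its sum and 58.8% with reads scaled to their own library total. None was called lower, and the median was 0.18 against -0.01 over all tested genes. H2-D1 rose by 0.26 ± 0.09 (95% interval 0.06 to 0.45, limma adjusted p = 0.0433), a 1.20-fold ratio of means, and B2m by 0.35 ± 0.12 (95% interval 0.08 to 0.62, limma adjusted p = 0.0468), a 1.27-fold ratio. H2-K1 was 1.15-fold higher, by 0.20 ± 0.08 (limma adjusted p = 0.0968), and passed the threshold with quantile normalization (0.37, limma adjusted p = 0.00895) and with reads scaled to their own library total (0.27, 0.0439). By non-overlap, 6 of 10 members lay higher in every gel library, against 25.3% of all tested genes, and 0 lay lower, against 25.4%. Those higher were H2-K1, H2-D1, B2m, Tap2, Tapbp and Nlrc5, the last of which lies outside the tested genes that the share covers. This comparison and CNV against untreated share the untreated libraries.

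The calls in gel against untreated depended on which libraries were included. That of H2-D1 was lost without untreated replicate 1 (limma adjusted p = 0.0636), 2 (0.0955) or 3 (0.115), without CNV replicate 1 (0.0552) or 2 (0.0562), and without gel replicate 1 (0.123) or 3 (0.0949). That of B2m was lost without untreated replicate 1 (limma adjusted p = 0.161) or 2 (0.0665), CNV replicate 1 (0.0571), and gel replicate 2 (0.144) or 3 (0.1002). Both stayed positive in all 19 alternative settings.

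**Figure D3:**
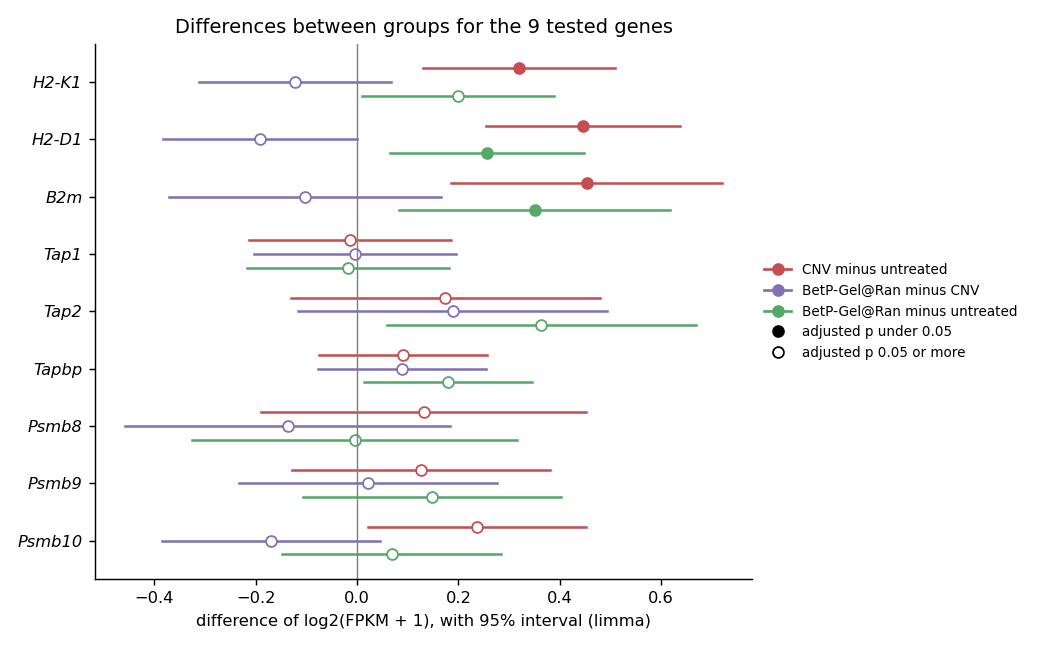
Log2 difference of FPKM + 1 between groups for the 9 tested members in the 3 comparisons (points), with 95% intervals from limma. H2-K1, H2-D1 and B2m lie to the right of 0 in CNV against untreated, and in gel against CNV the intervals of all 9 include 0.

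Among 15 other class I heavy chain genes, 9 could be tested, and 5 were called higher and 0 lower in CNV against untreated, with a median of 0.52. The shares over all tested genes were 22.5% higher and 22.1% lower. H2-M3, a nonclassical chain that presents formylated peptides, rose from 3.42 ± 0.519 FPKM to 8.74 ± 1.21 in CNV (SD, n = 3), by 1.14 (limma adjusted p = 1.01e-04), and stood at 6.36 ± 0.539 after the gel, 0.74 above untreated (limma adjusted p = 0.00196). H2-Q4, a Qa region chain, rose from 9.65 ± 0.459 FPKM to 17.4 ± 2.13 in CNV and 17.1 ± 0.183 after the gel, by 0.78 (limma adjusted p = 1.35e-04) and 0.77 (limma adjusted p = 3.23e-04). These exceed the differences of H2-K1 and H2-D1, though that contrast was not tested.

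H2-T24 rose by 1.04 in CNV (limma adjusted p = 0.0017). H2-Q7 and H2-T10, named after their values were seen, were also called higher in CNV, by 0.80 and 0.34. The H2-T10 call was lost in 11 of 18 alternative settings, among them no filter (limma adjusted p = 0.0543), quantile normalization (0.0773) and a fit of only the compared groups (0.0657). It was also lost without untreated replicate 1 (limma adjusted p = 0.132) or 2 (0.0715), any CNV replicate (0.0586 to 0.119), or gel replicate 1 (0.0522) or 3 (0.0533). Mr1, which presents vitamin B metabolites to mucosal-associated invariant T cells, stood at 11.4 ± 0.866 FPKM in untreated libraries, 12.1 ± 2.88 in CNV and 18.2 ± 1.21 after the gel. It rose by 0.63 in gel against untreated (limma adjusted p = 0.00772). The call of Mr1 against CNV (0.57, limma adjusted p = 0.0292) was lost without CNV replicate 1 (0.0960) or 2 (0.1014) or any gel replicate (0.0682 to 0.0913), and in 7 of 19 alternative settings in all.

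Of 10 other loading and trimming genes, all tested, 4 were called higher and 0 lower in CNV, with a median of 0.13. The shares over all tested genes were again 22.5% higher and 22.1% lower. Tapbpl, the tapasin-related editor TAPBPR, rose from 8.27 ± 0.468 FPKM to 11.7 ± 1.10 in CNV and 13.7 ± 1.17 after the gel, by 0.45 (limma adjusted p = 0.00301) and 0.66 (limma adjusted p = 8.65e-04). Lnpep, an aminopeptidase of endosomes linked to cross-presentation, rose by 0.61 and 0.55 (limma adjusted p = 1.98e-04 and 7.28e-04). Hspa5, the general endoplasmic reticulum chaperone BiP, rose by 0.82 in CNV (limma adjusted p = 1.32e-04) and by 0.46 after the gel (0.00468). Erap1, which trims peptides in the endoplasmic reticulum, rose by 0.27 in CNV (limma adjusted p = 0.0353), a call lost without untreated replicate 1 (0.103) or 3 (0.0770) or CNV replicate 2 (0.123) or 3 (0.0678), and in 7 of 18 alternative settings in all.

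**Figure D4:**
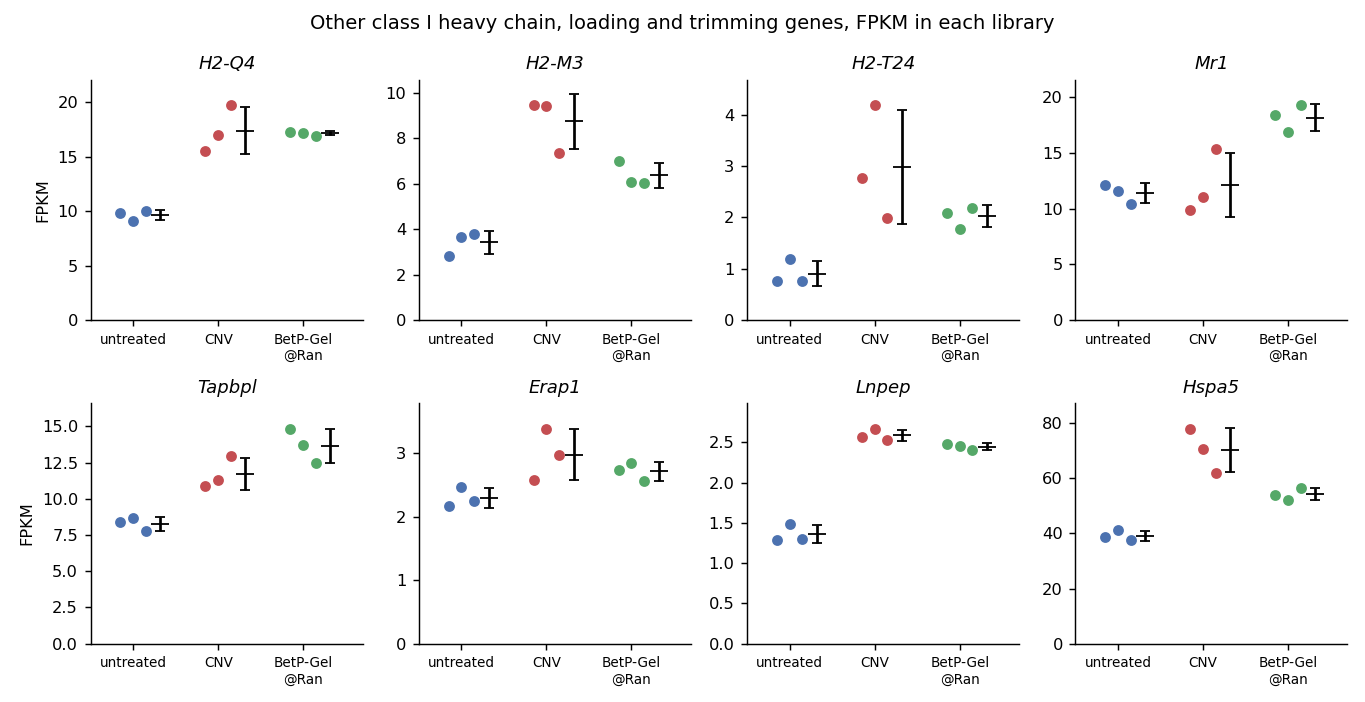
FPKM of 4 other class I heavy chain genes and 4 other loading and trimming genes in each of the 9 libraries (points, vertical axes from 0), with the group mean and SD (bar, n = 3). H2-M3 and Hspa5 are highest in CNV, Mr1 is highest after the gel, and H2-Q4, Tapbpl and Lnpep lie above untreated in both other groups.

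The 14 constitutive subunits of the 20S proteasome were all tested. In CNV against untreated, 1 was called higher (Psma7, named after its values were seen, by 0.26, lost without untreated replicate 2 or CNV replicate 2, limma adjusted p = 0.0675 and 0.0592) and 0 lower, with a median of -0.03. The shares over all tested genes there were 22.5% higher and 22.1% lower. In gel against untreated, 0 subunits were called higher and 6 lower, with a median of -0.19. The shares over all tested genes were 16.1% higher and 18.1% lower. Beside Psmb5, Psmb6 and Psmb7 the 6 subunits were Psma6, Psmb4 and Psma1, of which Psma6 fell by 0.40 (limma adjusted p = 0.00417). The calls of Psmb4 (limma adjusted p = 0.0635) and Psma1 (0.267) were lost with quantile normalization, and that of Psma1 also without untreated replicate 1 (0.0922) or 3 (0.0949) or gel replicate 1 (0.1006) or 2 (0.0684), in 9 of 19 alternative settings in all.

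Interferon gamma itself was barely detected. Ifng was listed at 0, 0.0870 and 0.0478 FPKM in untreated libraries, at 0, 0 and 0.0828 in CNV and at 0 in all gel libraries. Of the 16 interferon signalling genes, 14 were tested, and 9 were called higher and 0 lower in CNV, with a median of 0.36. The shares over all tested genes were 22.5% higher and 22.1% lower. Irf8, a myeloid interferon regulatory factor, rose by 1.19 (limma adjusted p = 9.55e-05), and the interferon gamma receptor genes Ifngr1 and Ifngr2 rose by 0.69 and 0.59 (limma adjusted p = 2.06e-04 and 4.52e-04).

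In gel against untreated, 8 of the interferon signalling genes were called higher and 0 lower, with a median of 0.27. The shares over all tested genes were 16.1% higher and 18.1% lower. Without untreated replicate 2 or 3 or gel replicate 1 or 3, 4 of these 8 calls were lost (limma adjusted p = 0.0509 to 0.122), and without untreated replicate 1, 3 were (0.0601 to 0.0811). Irf1, a direct activator of class I promoters, stood at 49.0 ± 3.66 FPKM in untreated libraries, 56.4 ± 12.3 in CNV and 70.4 ± 5.31 after the gel. It rose by 0.51 ± 0.14 against untreated (limma adjusted p = 0.0198), a call lost without untreated replicate 2 (0.0659) or 3 (0.0521) or gel replicate 1 (0.0600) or 3 (0.0639).

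Of 10 genes for factors that bind class I promoters, 4 were called higher and 1 lower in CNV, with a median of 0.06. For comparison, calls upward made up 22.5% of the whole tested set there, and calls downward 22.1%. In gel against untreated, 2 factor genes were called higher and 1 lower, with a median of 0.16. The shares of the whole set in that comparison were 16.1% upward and 18.1% downward. Nfya, the NF-Y subunit that contacts CCAAT, rose from 2.31 FPKM to 4.48 in CNV and 4.42 after the gel, by 0.73 and 0.71 (limma adjusted p = 6.54e-05 and 1.65e-04). Nfkb1, a kappa B binding subunit, rose by 0.41 in CNV (limma adjusted p = 0.00437). Nfyc was the gene called lower in both. Its call in CNV was lost in 14 of 19 alternative settings (limma adjusted p = 0.0506 to 0.255), among them the omission of any untreated or CNV library except untreated replicate 3 and of gel replicate 2 or 3. Its call in gel against untreated was lost with FPKM divided by its sum (0.0809).

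In gel against CNV, calls in these 5 lists were 1 higher and 1 lower among heavy chains, 0 and 1 among loading genes, 0 and 2 among constitutive subunits, 0 and 4 among interferon signalling genes and 0 and 0 among promoter factors. They were Mr1 and H2-Q7, Hspa5, Psma3 and Psma7, and Ifngr1, Ifnar1, Irf8 and Socs1. H2-Q7, Psma3, Psma7 and Socs1 are named after their values were seen. Every one of these 9 calls was lost without at least 1 of the CNV or gel libraries, with limma adjusted p up to 0.155. Over all tested genes, 5.81% were called higher and 8.27% lower in gel against CNV.

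Leukocyte markers, like H2-K1, H2-D1 and B2m, were higher in both other groups than in untreated libraries. Ptprc, the pan-leukocyte antigen CD45, stood at 0.180 ± 0.0202 FPKM in untreated libraries, 1.44 ± 0.353 in CNV and 0.744 ± 0.195 after the gel (SD, n = 3). All 12 leukocyte and macrophage markers lay higher in every CNV library and in every gel library than in any untreated one. Of the 12, 10 lay lower in every gel library than in any CNV one. Over all tested genes, such non-overlap held for 27.7%, 25.3% and 18.6%, respectively. The summed level of the 12 markers was 446 to 482 FPKM in untreated libraries, 1556 to 2294 in CNV and 861 to 1107 after the gel. Relative to the untreated mean, this sum was 3.37 to 4.97 times as high in the CNV libraries, where H2-D1 was 1.34 to 1.403 times as high. In gel against CNV, 9 of the 12 markers were called lower, against 8.27% of all tested genes, with a median of -0.72. There 0 of the 9 tested members were called, with a median of -0.10. The part of leukocytes in the class I result was not tested.

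Neutrophil markers summed to 23.6 to 37.4 FPKM in untreated libraries, 324 to 776 in CNV and 15.03 to 124 after the gel, with Mpo at 0 in all 9 libraries. Dendritic cell markers summed to 1.35 to 1.61, 4.12 to 4.66 and 3.34 to 3.94 FPKM. The cells that read class I left little signal: 14 T and NK cell markers summed to 2.91 to 7.54 FPKM in untreated libraries, 5.35 to 6.74 in CNV and 6.10 to 7.65 after the gel, and 1 of them was high enough to test and was not called. Cd8a, which marks the T cells restricted by class I, averaged 0.136, 0.175 and 0.0888 FPKM.

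**Figure D5:**
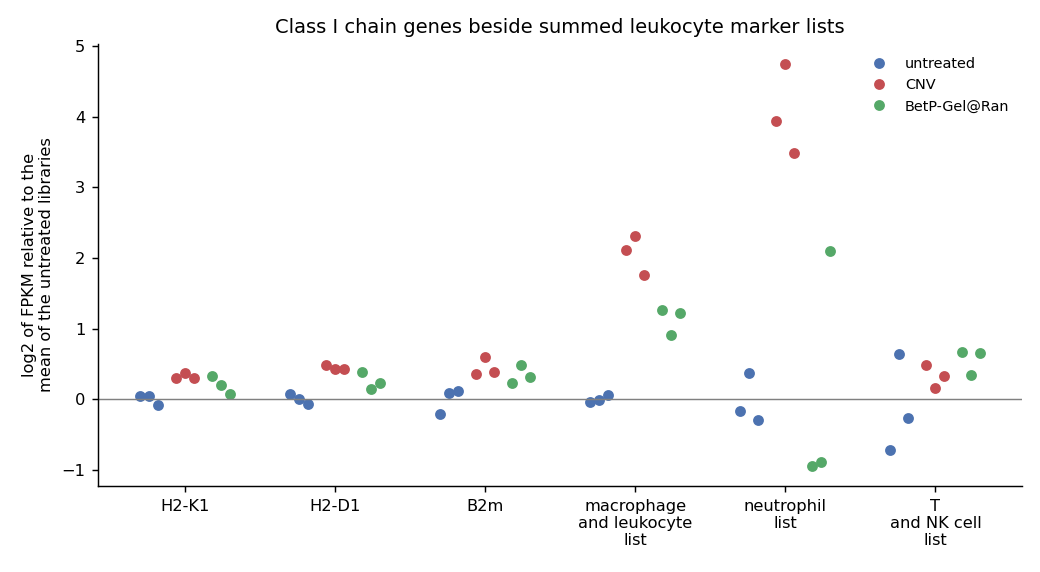
Level of H2-K1, H2-D1, B2m and of the summed leukocyte and macrophage, neutrophil, and T and NK cell marker lists in each of the 9 libraries, as log2 of the ratio to the untreated mean. The leukocyte and macrophage sum reaches 1.75 to 2.31 in CNV and the neutrophil sum 3.49 to 4.75, while the 3 class I genes lie between 0.30 and 0.60 there.

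Members differed in how closely they followed each other over the 9 libraries. As a description, with libraries of 3 groups as shared points, Pearson r of each tested member with the mean of the other 8 was 0.873 for H2-K1, 0.794 for H2-D1, 0.627 for Tapbp, 0.610 for Psmb9, 0.603 for Psmb10, 0.520 for B2m, 0.489 for Psmb8, 0.386 for Tap2 and 0.192 for Tap1. The tested genes outside the set most like its mean over the 9 libraries were Tspan12 (r = 0.954), Etv6 (0.953), Lmo2 (0.929), Avl9 (0.922), Ch25h (0.921), Id1 (0.918), Ubxn4 (0.917) and Chtf8 (0.917). Among them Id1 stood at 47.3 ± 3.79 FPKM in untreated libraries, 73.9 ± 9.52 in CNV and 68.5 ± 3.04 after the gel.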

How the data were processed

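Per the labels' protocols, poly-T beads selected mRNA out of 1 µg of Trizol-extracted RNA, and a NEBNext Ultra kit made the libraries. HTSeq 0.6.0 counted reads on mm10, per the submitters' processing notes. The aligner was not stated there. The authors deposited FPKM values in 1 table. Multiplied by deposited gene length, 100% of values were whole multiples of a fixed step per library within 0.05, which recovered the reads.

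Genes reaching 1 FPKM in 3 or more of the 9 libraries were tested with limma 3.58.1 (R 4.3.3, statmod 1.5.0), on log2(FPKM + 1), with the trend and robust options, 1 mean per group, all libraries in 1 fit, two-sided p-values and Benjamini-Hochberg adjustment over all tested genes. The fit was tested on simulated data. Ratios of subunits were compared by exact permutation and adjusted over the 9 comparisons. Alternatives were a pseudocount of 0.1, omitting the filter, filtering at 5 FPKM, FPKM divided by its sum, quantile normalization, only the compared groups, limma without trend and robust, limma voom on recovered reads, the replicate block, and each library left out. Reads scaled to their own library total and a limma voom fit for Nlrc5 were added after the data were seen.

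The members, 5 other pathway lists and 10 marker lists were chosen with earlier results of these data known. All members were named, with up to 4 genes of each pathway list by smallest p, Psmb5, Psmb6, Psmb7, Irf1, Ifng, Cd8a, Ptprc and the 8 genes most like the members. A gene named by this rule is not reported here. Replicate libraries differed by more than counting noise (chi-square per gene 8.34 to 43.7).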

Additional observations from a re-analysis of the deposited data

How the results depend on the processing

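The rises of H2-K1, H2-D1 and B2m in CNV against untreated were called in all 19 alternative settings, with limma adjusted p between 0.00434 and 0.0418, 7.86e-04 and 0.0112, and 0.00541 and 0.0493. Against 3 members called higher there, quantile normalization called 5, adding Psmb10 and Tapbp. Against 2 in gel against untreated, no filter and the fit of only the compared groups called 0, quantile normalization and reads scaled to their own library total called 4, and leaving out 1 library gave 0 to 3. H2-D1 was called there in 10 and B2m in 12 of 19 alternatives, with limma adjusted p of 0.00856 to 0.123 and 0.0142 to 0.161. No member was called in gel against CNV in any of the 19. All 72 alternative ratio values kept their direction.

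Signs turned only in differences that were not called, and the cause was not tested. The 3 scalings were FPKM divided by its sum, quantile normalization and own library totals. Tap1 in CNV against untreated became 0.050, 0.031 and 0.073 with them and ran from -0.077 to 0.037 with a library left out. In gel against CNV, Tap1 became 0.014 and 0.0066 with the first and quantile scalings and ran from -0.057 to 0.059, B2m became 0.036 with quantile normalization, and Psmb9 became -0.0045 with own totals and ran from -0.059 to 0.078. In gel against untreated, Tap1 became 0.064, 0.037 and 0.043 and ran from -0.071 to 0.033, Psmb8 became 0.084, 0.10 and 0.061 and ran from -0.18 to 0.12, and Psmb10 ran from -0.0026 to 0.14.

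The filter sets how many genes are tested. In CNV against untreated, a filter of 5 FPKM called 3846 of 7863 genes (48.9%), against 6281 of 14086 (44.6%) in the main fit. No filter called 6445 of 29374 there (21.9%), and 4049 in gel against untreated (13.8%, against 34.2%). Counts over all genes moved by over 1.5 times with that filter of 5 FPKM. In gel against CNV they did so with no filter (853 against 1983, or 2.90% against 14.1%). They also did so there with only the compared groups (1189) and with a CNV or gel library left out (446 to 3215). In gel against untreated the count moved this far without gel replicate 3 (3198 against 4813).

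Deviations of same-numbered libraries correlated at -0.148 to 0.0841, and those of differently numbered libraries at -0.191 to 0.171. Same numbers thus did not go with closer likeness. The labels do not name a pairing, and these values cannot decide whether there was one. With the replicate block, 6048, 1398 and 4467 genes were called in CNV against untreated, gel against CNV and gel against untreated, and no member's call changed, with 3, 0 and 2 members called higher. Among the other pathway genes named, the block lost the calls of H2-T10 (limma adjusted p = 0.0627) and Nfyc (0.0732) in CNV, of Psma1 in gel against untreated (0.0579), and of H2-Q7, Hspa5, Irf8, Psma3, Psma7 and Socs1 in gel against CNV (0.0549 to 0.0850). Depth limits Nlrc5 most, at 34 to 157 reads per library.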
